A study of Rattus norvegicus with 12 samples.

Results

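The genes described are 6 heat shock and chaperone genes of the rat hippocampus, Hspa5 (ENSRNOG00000018294), Hspa8 (ENSRNOG00000034066), Hsp90aa1 (ENSRNOG00000007219), Hsp90ab1 (ENSRNOG00000019834), Hspb1 (ENSRNOG00000023546) and Hspd1 (ENSRNOG00000014525), taken by name as 6 rows of a deposited table of 28959 rows. Hippocampal RNA of Sprague Dawley rats, labelled as 6 to 7 weeks old, was sequenced in 12 libraries, 3 for each of 4 groups. The unstressed group, Ctrl-Sal, was given saline. The remaining groups underwent chronic unpredictable mild stress (CUMS), a schedule of changing mild stressors that serves as a rodent model of depression, for 5 weeks, and for the last 7 days were given either saline (CUMS-Sal) or a drug, which was fluoxetine in CUMS-Flx and albiflorin in CUMS-Alb. Fluoxetine is an antidepressant that blocks serotonin reuptake. Albiflorin is a glycoside of peony root. The albiflorin dose was 7 mg/kg/d, whereas for fluoxetine the sample labels give 10 mg/kg/d and the series text 7 mg/kg/d. Nothing in the labels ties the 3 libraries to 3 animals, and the p-values therefore cover library-to-library spread that can include technical error.

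The table identifies genes by Ensembl ID and holds no symbols, and 0 of the 6 IDs were found in the reference table used here, so each name rests on the selection rule that pairs it with its ID. For the same reason the hippocampal label could not be checked against marker genes, and other genes of the heat shock and unfolded protein responses could not be located among the rows. Of the 6 rows, 5 had a mean of at least 0.5 FPKM and were tested, among 15253 rows in all. FPKM are reads scaled by the length of the gene and by the total of the library. The libraries held 14735953 to 18109623 reads, and Ctrl-Sal replicate 2 stood apart from the rest on the first principal component of all tested genes, at -44.7 against -12.2 to 15.1 for the other 11.

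Chaperones bind unfolded or partly folded proteins and help them to fold, to assemble or to be degraded. HSP70 proteins such as HSPA8 and HSPA5 bind short hydrophobic stretches in cycles of ATP hydrolysis, HSP90 proteins act later on clients that include the glucocorticoid receptor, HSP60 encloses proteins in a barrel in the mitochondrial matrix, and small heat shock proteins hold unfolded proteins without ATP. Heat and other stress to proteins in the cytosol act on these genes through heat shock factor 1 (HSF1), whereas unfolded protein in the endoplasmic reticulum acts on Hspa5 through ATF6 and XBP1. In the brain the glucocorticoid receptor, which HSP90 and its co-chaperones keep able to bind hormone, links chaperones to the stress hormone axis.

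The 6 genes covered the range from among the most abundant transcripts of the tissue to nearly no reads. By mean FPKM of the 12 libraries, Hspa8 ranked 41 among the rows of the table, at 805 FPKM, and Hsp90ab1 ranked 43, at 752. These neighbours were not separated by their spread, since Hspa8 ran from 740.9 to 896 FPKM and Hsp90ab1 from 713 to 786. Hspa5 followed at 171 FPKM, Hspd1 at 86.8 and Hspb1 at 3.08, and the ranges of these genes over the libraries did not overlap with each other or with those above. The row for Hsp90aa1 came last, at 0 to 0.0589 FPKM. Together the 6 rows took 0.387 to 0.437% of the reads of a library.

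**Figure D1:**
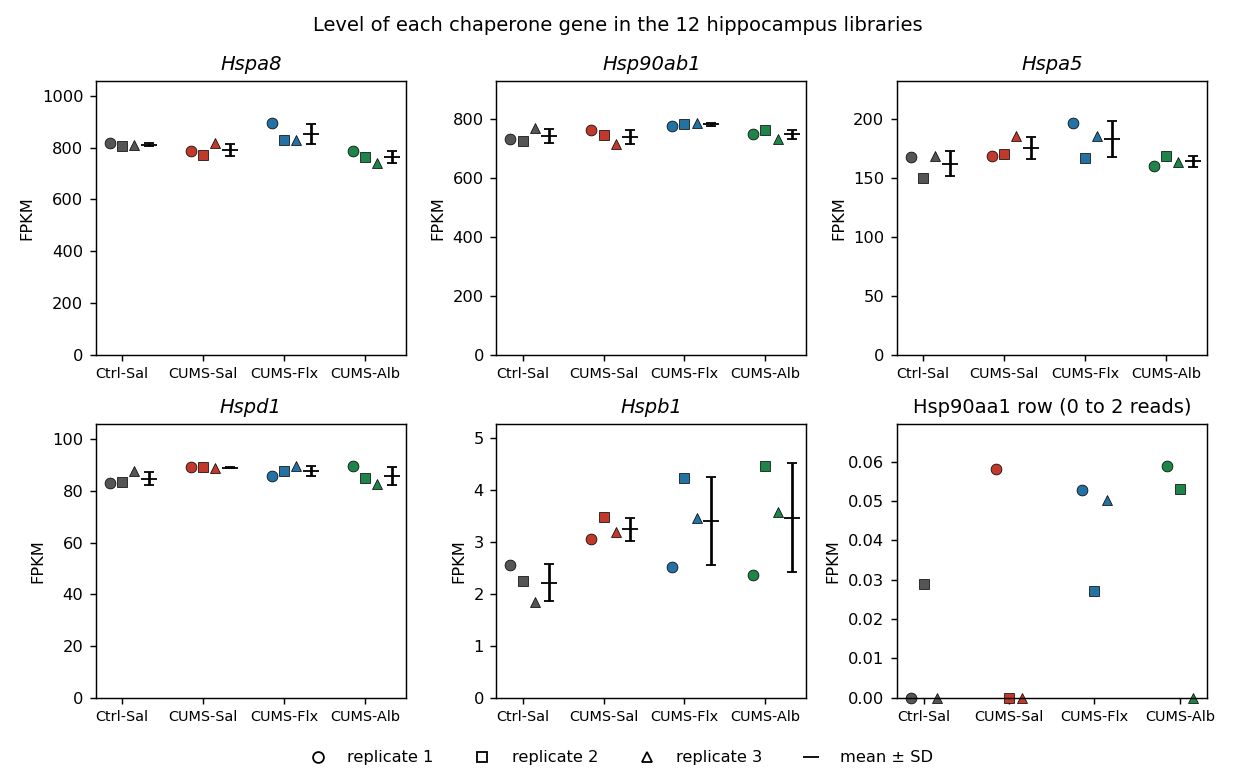
FPKM of the 6 genes (y axes, each from 0) in Ctrl-Sal, CUMS-Sal, CUMS-Flx and CUMS-Alb, with 1 point per library, its shape giving the replicate number, and the mean ± SD of 3 libraries beside the points, except for the Hsp90aa1 row. Hspa8, Hsp90ab1, Hspa5 and Hspd1 kept to a narrow band in all groups, Hspb1 was lowest in Ctrl-Sal on average, and the Hsp90aa1 row held at most 2 reads in a library.

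Hspa8 and Hsp90ab1 varied little between replicates for genes of their level. The SD between replicates, pooled over the 4 groups, was 0.036 log2 units for Hsp90ab1, the lowest of the 71 tested genes above 500 FPKM, and 0.044 for Hspa8, with 2 of the 71 lower. Hspd1, at 0.039, had 18 of 960 genes of 50 to 100 FPKM below it. Hspa5 was not unusual, at 0.088, with 193 of 432 genes of 100 to 200 FPKM below it. Hspb1 spread by 0.28 log2 units, and 2205 of 2615 genes of 2 to 5 FPKM spread less. The mean counting error of a Hspb1 value alone was 0.22 log2 units, on 26 to 67 reads per library, whereas that of Hspa8 and Hsp90ab1, on at least 22989 reads, was 0.0091 and 0.0083.

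**Figure D2:**
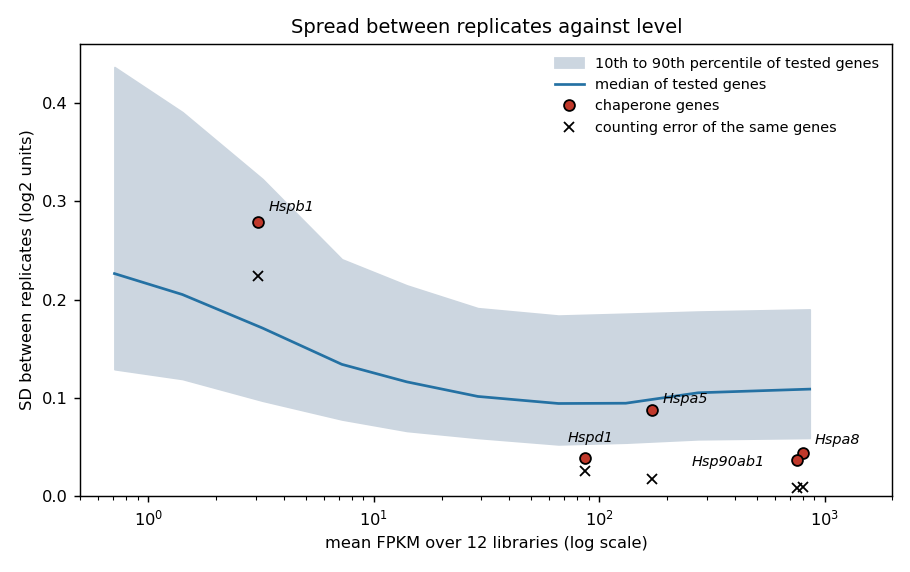
SD between replicates on the log2(FPKM + 0.5) scale (y axis) against mean FPKM over the 12 libraries (x axis, log scale), with the median and the 10th to 90th percentile of tested genes in bins of level. The 5 tested chaperone genes are points, and crosses give their counting error in log2 reads, with no 0.5 added. Hsp90ab1, Hspa8 and Hspd1 lie below the 10th percentile for their level and Hspb1 lies above the median.

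Hspa8 encodes HSC70, the constitutive HSP70 of the cytosol, which also uncoats clathrin vesicles at synapses. It stood at 818, 806 and 809.5 FPKM in Ctrl-Sal and at 789, 771 and 816 in CUMS-Sal, with means of 811 ± 6.16 and 792 ± 22.7 FPKM (SD, n = 3). The groups overlapped, and the log2 change in CUMS-Sal was -0.035 (SE 0.055, limma adjusted p = 0.708). With each library centred on its median deviation it was -0.139 (limma adjusted p = 0.163) and after quantile normalization 0.013, and it was -0.016 without CUMS-Sal replicate 2 and -0.057 without CUMS-Sal replicate 3. In CUMS-Flx the values were 896, 829 and 831 FPKM, and all 3 lay above every library of the other groups. Against CUMS-Sal this was a log2 difference of 0.11 (SE 0.055), or 7.56%, with a 95% interval of -1.0 to 16.9% (limma adjusted p = 0.547). Without CUMS-Flx replicate 1 the log2 difference was 0.068. Its size depended on the scaling: it was 0.054 after quantile normalization (limma adjusted p = 0.861) and 0.158 with each library centred on its median deviation (limma adjusted p = 0.494). In CUMS-Alb the values were 788, 763 and 740.9 FPKM, all below Ctrl-Sal and overlapping with CUMS-Sal. The log2 difference of CUMS-Alb from CUMS-Flx, -0.16 (SE 0.055), had an unadjusted p of 0.0141 in limma but an adjusted p of 0.955. Hspa8 has many processed copies in mammalian genomes, and how the authors' counting treated reads that match several places is not given in the sources used here.

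Hsp90ab1 encodes HSP90 beta, the constitutive cytosolic HSP90. Its values were 731, 726 and 769 FPKM in Ctrl-Sal, and CUMS-Sal stood at 761, 743 and 713. The groups overlapped and their means, 742 ± 23.4 and 739 ± 24.4 FPKM (SD, n = 3), differed by -0.367%, with a 95% interval of -7.93 to 7.82% on the scale of FPKM + 0.5. This near-equality holds on the deposited scale, since relative to the median of all tested genes the log2 change was -0.108. In CUMS-Flx Hsp90ab1 stood at 775, 781 and 786 FPKM, above all libraries of the other groups on the deposited scale, as Hspa8 did. The log2 difference from CUMS-Sal was 0.08 (SE 0.052, limma adjusted p = 0.632). After quantile normalization it was 0.017 (limma adjusted p = 0.96), and with median centring 0.133 (limma adjusted p = 0.512). In CUMS-Alb it stood at 748, 762 and 731 FPKM, within the range of Ctrl-Sal.

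Hsp90aa1 encodes HSP90 alpha, the form of cytosolic HSP90 that heat shock raises. Its row was listed at 0, 0.029 and 0 FPKM in Ctrl-Sal, 0.058, 0 and 0 in CUMS-Sal, 0.0528, 0.0272 and 0.0502 in CUMS-Flx, and 0.0589, 0.0531 and 0 in CUMS-Alb. These are 0, 1 or 2 reads in each library, over a length of 2202 bp, and no library exceeded the 3 reads that a count of 0 still allows, so no comparison was made. HSP90 alpha is known as an abundant protein of neurons, so the listed values stand against the name given to the row. Whether its reads were counted under another row, shared among similar genes or not counted was not tested.

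Hspa5 encodes BiP (GRP78), the HSP70 of the endoplasmic reticulum and the usual readout of the unfolded protein response. It stood at 168, 149.5 and 169 FPKM in Ctrl-Sal and at 169, 171 and 186 in CUMS-Sal, so that the groups did not overlap, though the nearest libraries differed by less than 1 FPKM. The log2 change was 0.11 (SE 0.073, limma adjusted p = 0.323), with a 95% interval of -3.11 to 20.7%. The lowest value came from Ctrl-Sal replicate 2, and without it the log2 change was 0.057. Without CUMS-Sal replicate 3, the highest of its group, it was 0.07. The median change of all tested genes in this comparison was 0.10, and relative to it Hspa5 stood at 0.01. In CUMS-Flx the values were 197, 167 and 185 FPKM and in CUMS-Alb 160, 169 and 163. CUMS-Flx replicate 1 thus held the highest value of both Hspa5 and Hspa8, and CUMS-Flx had the widest spread of Hspa5, with an SD of 15.01 FPKM. CUMS-Flx differed from Ctrl-Sal by 0.17 (SE 0.073, unadjusted p = 0.0337 and adjusted p = 0.248 in limma), with overlapping libraries, and CUMS-Alb differed from CUMS-Sal by -0.094 (limma adjusted p = 1). These groups did not overlap, but their nearest libraries again differed by less than 1 FPKM, and without CUMS-Sal replicate 3 the log2 difference was -0.051.

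Hspd1 encodes HSP60, the chaperonin of the mitochondrial matrix. Its values were 83.2, 83.4 and 87.6 FPKM in Ctrl-Sal, and CUMS-Sal stood at 89.0, 89.0 and 88.8. The groups did not overlap, and the log2 change was 0.07 (SE 0.052, limma adjusted p = 0.388), or 4.99% with a 95% interval of -2.84 to 13.5%. Relative to the median of all tested genes it was -0.033, so the sign depended on the scaling. In CUMS-Flx Hspd1 stood at 85.8, 87.7 and 89.6 FPKM and in CUMS-Alb at 89.4, 84.7 and 82.7, and both groups overlapped with CUMS-Sal and with Ctrl-Sal. Over all 12 libraries the highest value was 1.08 times the lowest, the smallest such ratio of the 5 tested genes.

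Hspb1 encodes HSP27 (HSP25 in rodents), a small heat shock protein that also binds actin, and in the brain is found mainly in glia and vessels. Its values were 2.55, 2.25 and 1.83 FPKM in Ctrl-Sal, on 33, 31 and 26 reads. In CUMS-Sal they were 3.05, 3.48 and 3.18 FPKM, on 42, 47 and 43 reads. All CUMS-Sal libraries lay above all Ctrl-Sal libraries. The log2 change of FPKM + 0.5 was 0.47 (SE 0.20), with an unadjusted p of 0.0366 and an adjusted p of 0.139 in limma. Over the alternative settings the change ran from 0.293 after quantile normalization (limma adjusted p = 0.387) to 0.558 without Ctrl-Sal replicate 1 (limma adjusted p = 0.129). With each library centred on its median deviation it was 0.366 (limma adjusted p = 0.264). In CUMS-Flx Hspb1 stood at 2.52, 4.22 and 3.46 FPKM and in CUMS-Alb at 2.36, 4.46 and 3.57. In both groups replicate 1 lay within the Ctrl-Sal range and replicates 2 and 3 above it. The log2 differences from Ctrl-Sal were 0.51 for CUMS-Flx and 0.52 for CUMS-Alb (SE 0.20 each, limma adjusted p = 0.226 and 0.122), and that of CUMS-Alb was 0.34 without CUMS-Alb replicate 2. Where Hspb1 was higher, more cells that carry the transcript and more RNA per cell cannot be told apart in such tissue samples. Glial and vessel markers could not be located among the rows. Relative to the median of all tested genes the Hspb1 differences from Ctrl-Sal were 0.37, 0.46 and 0.42 for the groups on saline, fluoxetine and albiflorin. These 3 comparisons share the Ctrl-Sal libraries.

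The question of whether any of these genes differed after stress or with a drug was put to 6 comparisons, and limma called 0 of the 5 tested genes at an adjusted p under 0.05 in each. In CUMS-Sal against Ctrl-Sal, where 9.19% of all tested genes were called, 1 of the 5 (Hspb1) had an unadjusted p under 0.05, against 30% of all tested genes. The share called rests on single libraries: the 1402 genes behind it became 1 without CUMS-Sal replicate 2, 24 without CUMS-Sal replicate 3, 327 without CUMS-Sal replicate 1, and 369 or 2637 when replicate 2 or 3 of Ctrl-Sal was left out. With only the 2 groups compared in the fit 0 genes were called. The 5 log2 changes ran from -0.035 to 0.47, with a median of 0.07 beside 0.10 for all tested genes. Hspa5, Hspb1 and Hspd1 were higher in CUMS-Sal without overlap, 3 of 5, where 25.3% of all tested genes were. With 5 genes neither count sets them apart.

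With a drug the differences from CUMS-Sal were of a few percent and none was called. In CUMS-Flx against CUMS-Sal 0 of 5 had an unadjusted p under 0.05 beside 9.98% of all tested genes, and 0% of all were called. Hspa8 and Hsp90ab1 were higher without overlap, 2 of 5, where 4.25% of all tested genes were, and the median log2 difference was 0.061 beside -0.053 for all. In CUMS-Alb against CUMS-Sal 0 of 5 had an unadjusted p under 0.05 beside 3.66% of all tested genes, and 0% of all were called. Hspa5 was lower without overlap, 1 of 5, beside 6.5% of all, and the median was -0.052 beside -0.01.

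Set against each other, the drugs differed most in Hspa8 and Hspa5. In CUMS-Alb against CUMS-Flx the call rate over all tested genes was 0.00656%, and 1 of the 5 genes (Hspa8) had an unadjusted p under 0.05 beside 4.98% of all. Hspa8 in CUMS-Alb had a change of -10.3% and a 95% interval of -17.5 to -2.58%, and Hspa5 had a change of -10.2% with an interval of -19.6 to 0.234%, neither called. Without CUMS-Flx replicate 1 the log2 difference of Hspa5 was -0.10 and without CUMS-Flx replicate 2 it was -0.22, against -0.16 with all libraries. Hspa8 and Hsp90ab1 were lower without overlap, 2 of 5, where 3.13% of all tested genes were. The same CUMS-Flx libraries, highest for both genes, gave the count against CUMS-Sal, so these are not separate observations.

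Against unstressed rats, 0.0524% of all tested genes were called in CUMS-Flx and 2.5% in CUMS-Alb. These shares rest on single libraries too. The 381 genes called in CUMS-Alb became 1 without CUMS-Alb replicate 1, 0 without replicate 2 or 3 of that group, and 6 or 2356 when replicate 2 or 3 of Ctrl-Sal was left out. The 8 genes called in CUMS-Flx numbered 544 when Ctrl-Sal replicate 3 was left out and 14 when replicate 1 of that group was, and 1 to 5 when any other library of either group was. In CUMS-Flx 2 of the 5 genes (Hspa5 and Hspb1) had an unadjusted p under 0.05 beside 17.5% of all, and Hspa8 and Hsp90ab1 were higher without overlap, beside 11.9% of all. For Hspa8 and Hsp90ab1 this rests on the same CUMS-Flx libraries as the counts above. In CUMS-Alb 1 of the 5 (Hspb1) had an unadjusted p under 0.05 beside 27.4% of all, and Hspa8 was lower without overlap, beside 6.37% of all. A test for any difference among the 4 groups called 0.0459% of all tested genes and 0 of the 5, with adjusted p of 0.31 for Hspa5, 0.266 for Hspa8, 0.638 for Hsp90ab1, 0.241 for Hspb1 and 0.71 for Hspd1. In that test 0 of the 5 had an unadjusted p under 0.05, beside 23.2% of all tested genes. A second tool, limma-voom on the reads, called 0 of the 5 in each comparison and in that test. Over its 15678 rows it called 11.8% in CUMS-Sal against Ctrl-Sal, 0.344% in CUMS-Flx against Ctrl-Sal and 7.78% in CUMS-Alb against Ctrl-Sal. It called 0% in each drug against CUMS-Sal, 0.00638% in CUMS-Alb against CUMS-Flx and 2.47% in the test among the 4 groups. Over the 6 comparisons the 95% intervals of Hspa8, Hsp90ab1 and Hspd1 lay between -17.5% and 16.9%, those of Hspa5 between -19.6% and 26.0% and those of Hspb1 between -25.4% and 93.7%. A p that misses the threshold does not show that levels were equal. In the comparisons among the CUMS groups, alternative settings of the processing called 0 to 5 of all tested genes. A count of 0 chaperone genes there says little about how stable the result is.

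**Figure D3:**
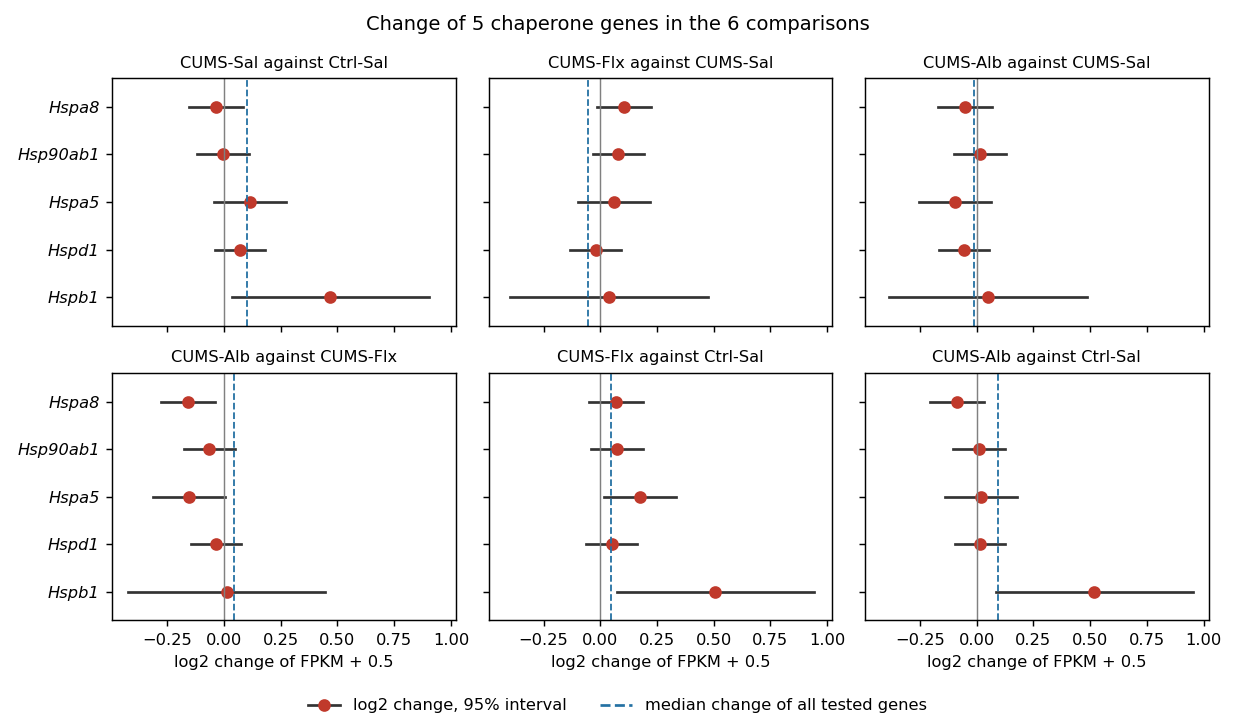
Log2 change of FPKM + 0.5 (x axis) of the 5 tested genes in the 6 comparisons, with 95% intervals from the limma fit as lines, 0 as a grey line and the median change of all tested genes as a dashed line. The points of Hspa8, Hsp90ab1, Hspa5 and Hspd1 lie between -0.16 and 0.17, and the wide intervals belong to Hspb1.

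Ratios between genes within a library do not depend on its scaling. Hspa8 stood at 1.09 ± 0.0361 times Hsp90ab1 in Ctrl-Sal, 1.07 ± 0.0625 in CUMS-Sal, 1.09 ± 0.0561 in CUMS-Flx and 1.02 ± 0.0276 in CUMS-Alb (SD, n = 3), and these ranges overlapped except that 2 of the 3 CUMS-Alb libraries lay below all others. The ratio of cytosolic Hspa8 to endoplasmic reticulum Hspa5 was 4.88, 5.39 and 4.80 in Ctrl-Sal, and CUMS-Sal lay below without overlap, at 4.67, 4.52 and 4.4. It was 4.56, 4.97 and 4.49 in CUMS-Flx and 4.94, 4.53 and 4.53 in CUMS-Alb, and in both of these groups 1 library lay within the Ctrl-Sal range. The ratio of Hspa5 to mitochondrial Hspd1 overlapped between all groups, with means of 1.91 ± 0.112, 1.97 ± 0.107, 2.09 ± 0.195 and 1.92 ± 0.114 in the same order. Hspb1 stood at 0.0306, 0.027 and 0.0209 times Hspd1 in Ctrl-Sal, and CUMS-Sal lay above without overlap, at 0.0343, 0.0391 and 0.0358. In CUMS-Flx this ratio was 0.0293, 0.0481 and 0.0386 and in CUMS-Alb 0.0264, 0.0526 and 0.0431, each with 1 library within the Ctrl-Sal range. No test was made of these ratios, which were chosen after the values were seen.

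**Figure D4:**
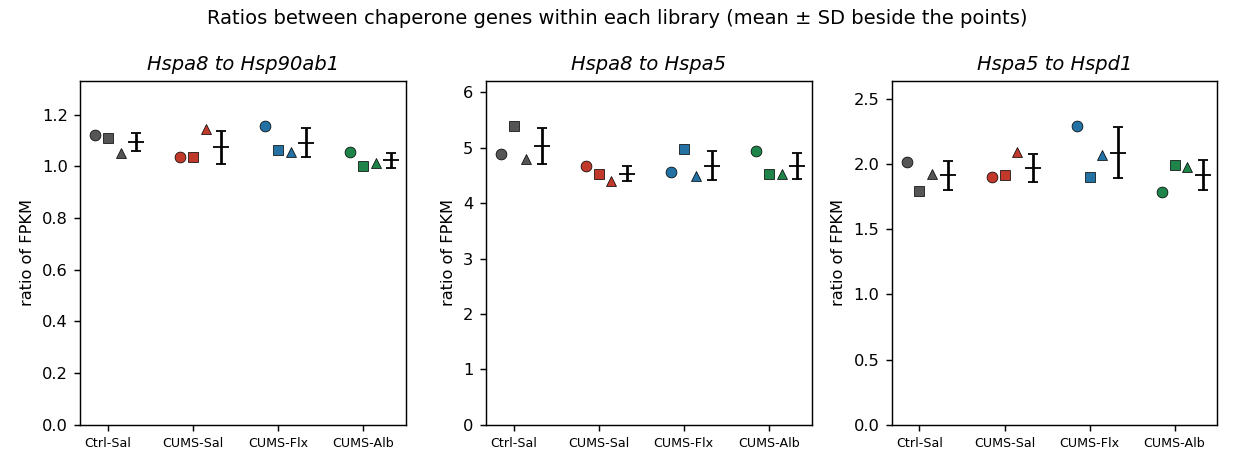
Ratio of FPKM of Hspa8 to Hsp90ab1, Hspa8 to Hspa5 and Hspa5 to Hspd1 (y axes from 0) in each library, with circles, squares and triangles for replicates 1, 2 and 3 and the mean ± SD of 3 libraries beside the points. The ratio of Hspa8 to Hspa5 is 4.80 to 5.39 in Ctrl-Sal and 4.4 to 4.67 in CUMS-Sal, and the other plotted ratios overlap between these groups.

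The 5 genes gave correlations of either sign across the libraries, described here without intervals. Over the 12 libraries, which share 1 scaling, Pearson correlations of their log2 values ran from -0.327 for Hspa8 with Hspb1 to 0.6 for Hspa5 with Hspa8. With group means removed, Hspa5 and Hspa8 correlated at 0.557, Hsp90ab1 and Hspd1 at 0.517, and Hspa8 and Hspb1 at -0.64. The remaining pairs lay between -0.453 and 0.0885. How far counting error affected these r was not tested. Among all tested rows the pattern most like that of Hspa8 was ENSRNOG00000021164 (r = 0.921), followed by ENSRNOG00000032803 (0.867). Those most like Hspd1 were ENSRNOG00000050509 (0.956) and ENSRNOG00000010434 (0.915), and those most like Hspb1 were ENSRNOG00000013397 (0.905) and ENSRNOG00000053288 (0.869). For Hspa5 they were ENSRNOG00000060223 (0.883) and ENSRNOG00000000250 (0.857), and for Hsp90ab1 ENSRNOG00000055853 (0.896) and ENSRNOG00000008552 (0.874). Each r is the highest among all other tested rows over only 12 libraries, so it is a description, and the reference used here gave no names for these IDs.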

How the data were processed

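Per the values, since the header names no unit, the authors deposited FPKM, in a table with 1 column per sample and 28959 rows. The submitters' processing notes name TopHat2 and build rn6; the sources used here do not give the read counter, annotation or strand setting. Whole reads, gene lengths and library totals behind the FPKM were solved for, in 22737 of 22737 rows above 0, to 0.0001 of a read (0.002 in 1 row). The FPKM, as log2(FPKM + 0.5), were fitted with limma 3.58.1 (R 4.3.3, trend and robust settings), 1 coefficient per group and all 12 samples, in 15253 rows whose mean reached 0.5 FPKM. This scale understates changes of low genes. A call is a Benjamini-Hochberg adjusted p, over all tested rows, under 0.05. On simulated data with 15253 genes, for the contrast of CUMS-Sal with Ctrl-Sal, 52% of 50 genes changed 1.5-fold and 94% at 2-fold were recovered. The simulation gave every gene the same spread beyond counting, changed no gene of very few reads and held no outlying library. These rates therefore need not hold for the real libraries.

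The 6 genes and the gene lists were chosen with earlier results of these data known. Lists of chaperone genes and cell type markers, fixed by symbol, could not be matched to rows and were not tested. The named genes are the 6, and per tested gene the 2 rows of most similar pattern. No pair of libraries of a group was alike within counting noise, so none was merged as a library deposited more than once; this does not show that they come from separate animals. Alternatives were median centring, quantile normalization, other filters (none, 5 FPKM) and pseudocounts (0.1, 1), limma without trend and robust settings, only the compared groups, a replicate block, limma-voom on reads, a threshold of 0.1 and single libraries left out. The filter at 5 FPKM kept 4 of the 6 genes, without Hspb1, and no filter kept all 6. Counting errors cover counting only. Matplotlib 3.10.9 (Python 3.11.15) drew the figures.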

Additional observations from a re-analysis of the deposited data

How the results depend on the processing

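Each alternative setting was applied to the comparisons and to the test among the 4 groups, which gave 124 counts from the same 12 libraries. In all 124, 0 of the 4 to 6 chaperone genes tested were called. Of 474 recomputed log2 changes of single genes, 445 kept their direction. With each library centred on its median deviation, Hspd1 turned to -0.033 in CUMS-Sal against Ctrl-Sal, 0.033 in CUMS-Flx against CUMS-Sal, -0.00018 in CUMS-Flx against Ctrl-Sal and -0.078 in CUMS-Alb against Ctrl-Sal. In the last comparison Hspa5 turned to -0.074 and Hsp90ab1 to -0.083, and Hspb1 turned to -0.031 in CUMS-Alb against CUMS-Flx. After quantile normalization Hspa8 turned to 0.013 and Hsp90ab1 to 0.011 in CUMS-Sal against Ctrl-Sal, and Hsp90ab1 to -0.015 in CUMS-Alb against CUMS-Sal. Hspb1 turned to -0.052 in CUMS-Alb against CUMS-Flx and Hspd1 to -0.0071 in CUMS-Flx against Ctrl-Sal, and in CUMS-Alb against Ctrl-Sal Hspa5 turned to -0.022, Hsp90ab1 to -0.0042 and Hspd1 to -0.044. The cause was not tested.

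Leaving out single libraries moved Hsp90ab1 over -0.027 to 0.021 in CUMS-Sal against Ctrl-Sal (turned without Ctrl-Sal replicate 3 or CUMS-Sal replicate 3), -0.010 to 0.037 in CUMS-Alb against CUMS-Sal (without CUMS-Sal replicate 3) and -0.0056 to 0.036 in CUMS-Alb against Ctrl-Sal (without Ctrl-Sal replicate 1 or 2 or CUMS-Alb replicate 2). Hspb1 ran from -0.11 to 0.21 in CUMS-Flx against CUMS-Sal (turned without CUMS-Flx replicate 2), -0.13 to 0.27 in CUMS-Alb against CUMS-Sal (without CUMS-Alb replicate 2) and -0.17 to 0.23 in CUMS-Alb against CUMS-Flx (without CUMS-Flx replicate 1 or CUMS-Alb replicate 2 or 3). In CUMS-Alb against Ctrl-Sal Hspa5 ran from -0.037 to 0.049 (turned without Ctrl-Sal replicate 2 or CUMS-Alb replicate 2) and Hspd1 from -0.017 to 0.039 (without CUMS-Alb replicate 1).

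Over all tested genes the count in CUMS-Sal against Ctrl-Sal (1402 as reported) was 743 with median centring, 529 after quantile normalization, 251 with no filter, 740 without trend and robust settings and 0 with only the compared groups. In CUMS-Alb against Ctrl-Sal (381) it was 28, 98, 3, 0 and 1 in the same order, and 996 with a minimum of 5 FPKM. In CUMS-Flx against Ctrl-Sal (8) it ran from 0 to 54 over these settings and limma-voom. The test among the 4 groups (7) reached 778 without Ctrl-Sal replicate 3.

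With the replicate number as a block 0 of the 5 genes were called in each comparison. Over all tested genes this fit called 565 in CUMS-Sal against Ctrl-Sal, 1 in CUMS-Alb against CUMS-Flx and 0 elsewhere. No pairing by number was visible: by deviations from group means 1 of 18 same-numbered pairs correlated above 0.1, and 0 of 12 libraries best with their own number. With so few libraries this cannot exclude a small shared effect. Depth limits Hspb1, at 26 to 67 reads per library, and the Hsp90aa1 row, at 0 to 2.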
